A study of Mus musculus with 6 samples.

Results

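ABC transporter genes were compared between RNA pulled down with ribosomes tagged in microglia and whole hippocampal RNA of the same mice. The members were the protein-coding genes with a symbol of subfamilies Abca to Abcg followed by a digit. The deposited table of 15388 genes held 37 of them, 10 in Abca, 8 in Abcb, 7 in Abcc, 4 in Abcd, 1 in Abce, 3 in Abcf and 4 in Abcg, and 12 further family genes of the GENCODE M21 annotation were not analysed here. All mice had the genotype Cx3cr1-Cre/Ert2+; NuTRAP+ and were about 3 months old when injected with tamoxifen on 5 consecutive days. They carried 1 copy of a Cre that is induced by tamoxifen and is driven by the Cx3cr1 promoter. After recombination NuTRAP tags ribosomes with EGFP and the nuclear envelope with mCherry. The study also saw a small EGFP-positive population, mostly with the microglial marker CD11b, in mice of this line without tamoxifen. From each of 3 animals, numbered 201, 207 and 208, the cleared hippocampal homogenate gave 1 Input library, and the ribosomes pulled down from it with anti-GFP beads gave 1 Positive library, so that Positive was set against the Input of the same animals. Cx3cr1 is also active in macrophages at the borders of the brain, so the tagged cells need not all be microglia. A library from a mouse without Cre was not analysed here, so RNA that the beads held without the tag was not measured.

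ABC transporters are proteins that use ATP to move lipids, drugs, peptides, metals and metabolites across membranes. A working transporter has a pair of ATP-binding domains and a pair of membrane domains, either in 1 chain or assembled from half-transporters. Abca and Abcg proteins mostly move lipids and sterols, Abcb and Abcc proteins include the drug efflux pumps of the blood-brain barrier, and Abcd proteins serve peroxisomes and lysosomes. Abce and Abcf proteins keep the ATP-binding domains but have no membrane domain and act on ribosomes. In macrophages and microglia the family is best known for export of cholesterol to lipoproteins by Abca1 and Abcg1.

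The libraries held 14879734 to 17757918 reads each, and members took 0.158% to 0.167% of the reads in Input and 0.158% to 0.186% in Positive, ranges that overlap. Reads below are scaled reads, that is, deposited reads brought to one scale with 1 size factor for each library, and fold changes are Positive over Input. The labelled enrichment was present. All 10 microglial markers (such as Cx3cr1 and C1qa) were higher in Positive with a median log2 fold change of 4.66, and their summed level was 5405 to 5749.8 scaled reads in Input against 108486 to 160297 in Positive. Border macrophage markers were also higher, 7 of 7 tested with a median of 4.15, and a summed level of 198 to 255 in Input and 2645 to 5789 in Positive. The 8 oligodendrocyte markers were all lower with a median of -2.58. Of the 8 neuron markers 2 were higher with a median of 0.14, and of the 8 astrocyte markers 3 were lower with a median of -0.33. The summed level of the neuron markers was 90024.5 to 100686 in Input and 97674 to 114980 in Positive. For the astrocyte markers it was 33755 to 36782 in Input and 22725 to 34658 in Positive. Positive thus still held much RNA of these markers, so levels there are not those of microglia alone. Both fractions of an animal came from the same homogenate, so a fold change compares RNA held by the beads with RNA of the homogenate. It does not compare numbers of cells. Within either fraction, the number of cells of a type and the RNA per cell cannot be told apart.

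Of the 37 ABC transporter genes 16 were higher and 8 lower in Positive, and 13 did not pass (edgeR quasi-likelihood test, Benjamini-Hochberg adjusted p under 0.05 over 15343 genes, n = 3 per fraction). The same test called 46.0% of all genes, 23.9% higher and 22.0% lower, against 64.9%, 43.2% and 21.6% of the members. The median log2 fold change was 0.26 over the members and -0.01 over all genes. This median was not stable: among the 33 members above 100 scaled reads, a set without Abcg3, Abcc6, Abcb1b and Abca6, it was -0.0218 against -0.00808 over all genes kept, and without the Input library of animal 207 it was 0.157. Each of the 24 called members moved in one direction in all 3 animals, as did 30 of all 37 members. The test that called them used the same libraries, so this is no separate support. The values of the fractions did not overlap in 27 members, or 73.0%, against 56.5% of all genes. The filter on low reads asked for over 20 scaled reads in all libraries of Input or of Positive. Abcg3 and Abcc6 passed it only through Positive, and both are among the higher and the non-overlapping members. When the ratio of the fractions also had to be more than 5 to 4, which is the limit the study used, 15 members were higher and 6 lower, or 56.8% of members against 39.8% of all genes (20.5% higher and 19.3% lower). More than 5-fold enrichment, the limit of the study for ribosomal-tagging markers, was found for 3 members, Abcg3, Abcc3 and Abca9, or 8.11% of members against 3.75% of all genes. Without the Positive library of animal 208 Abcb1a passed it too, with a log2 fold change of 2.39. By subfamily, 2 of 10 Abca genes were higher and 5 lower, and 3 of 7 Abcc genes were higher and 2 lower. Abcb held 2 of 8 genes higher and none lower. All 4 genes of Abce and Abcf were higher, and Abcg had 3 higher and 1 lower.

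**Figure D1:**
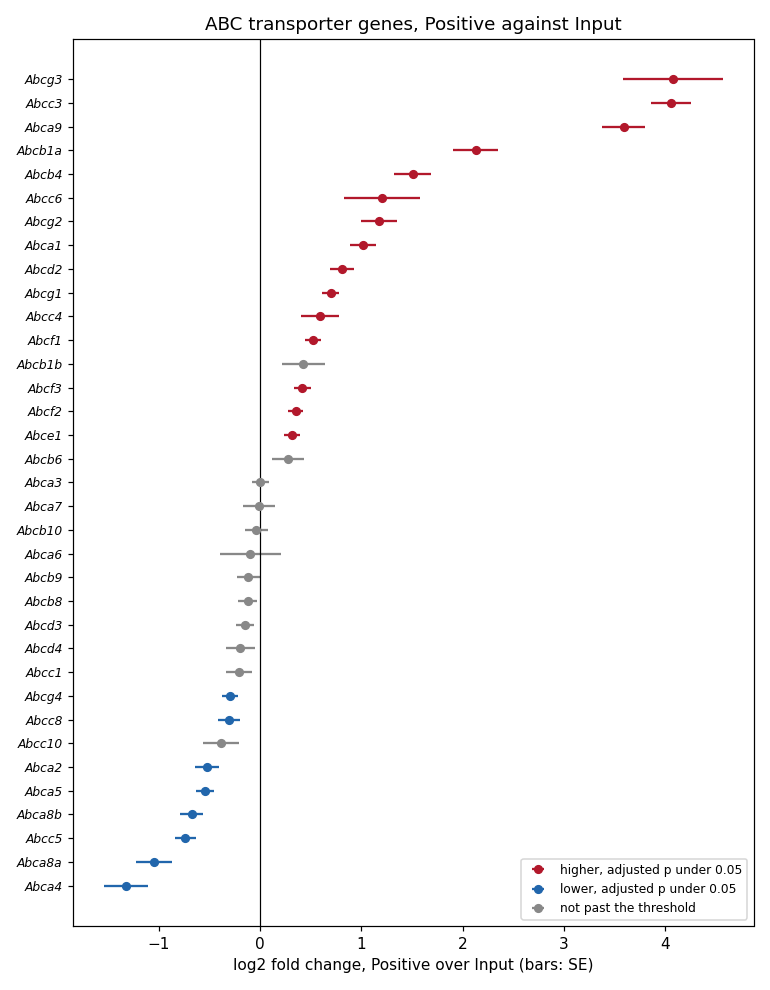
Log2 fold change of Positive over Input for 35 of the 37 ABC transporter genes, with bars for the SE of the edgeR fit and colours for the call at an adjusted p under 0.05. Abcg3, Abcc3 and Abca9 stand at 3.59 to 4.08, well apart from Abcb1a at 2.13, and Abca4 is the lowest at -1.32.

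The members with the largest enrichment came from 3 subfamilies. Abcc3 (chromosome 11, 94343295 to 94392997, minus strand, mm10) encodes an efflux pump for glucuronide conjugates and bile salts that is best known from liver and gut. It had 30.6, 39.7 and 52.4 scaled reads in Input of animals 201, 207 and 208 and 671, 813 and 564 in Positive. The groups were far apart, and the log2 fold change was 4.06 ± 0.20 (SE, edgeR adjusted p = 3.91e-09), or 16.7-fold. Abcg3 (chromosome 5, 104935057 to 104982718, minus strand) is a rodent relative of the drug pump Abcg2. Its deposited reads were 4, 0 and 6 in Input and 49, 74 and 54 in Positive, and every Positive library was above every Input library. The log2 fold change of Abcg3 was 4.08 ± 0.49 (SE, edgeR adjusted p = 2.24e-05), but with so few Input reads its size is uncertain. It was 3.47 without the Input library of animal 207 and 4.81 without that of animal 208, while the call held in both fits. Abcg3 passed the filter on low reads only through Positive, so its direction was largely fixed by that filter. Neither the separation of the groups nor the call is therefore separate support for that direction. Abca9 is described with its neighbours below.

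**Figure D2:**
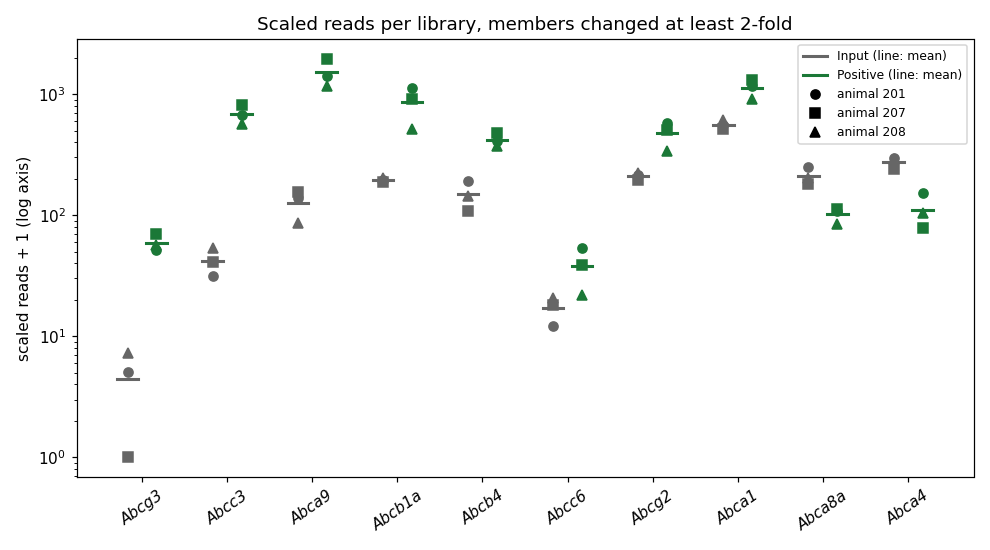
Scaled reads plus 1 (log axis) in each Input library (grey) and Positive library (green) for 10 members that were called and changed at least 2-fold, with a symbol for each animal and lines for the means. The 8 genes on the left are higher in every Positive library than in any Input library, Abcc6 by the smallest margin. Abca8a and Abca4 are lower in every Positive library. Abcg3 and Abcc6 passed the filter on low reads only through Positive.

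Abca9 lies in a run of 5 Abca genes on the minus strand of chromosome 11, in the order Abca5, Abca6, Abca9, Abca8a and Abca8b along the direction of transcription. These genes encode large lipid transporters of one branch of the subfamily whose substrates are poorly known. Abca9 (chromosome 11, 110100749 to 110168196, minus strand) had 137, 153 and 84.8 scaled reads in Input and 1417, 1956 and 1164 in Positive, a log2 fold change of 3.59 ± 0.21 (SE, edgeR adjusted p = 2.63e-08) or 12-fold. None of its neighbours in the run was called higher. Abca8a, whose annotated body starts 4.7 kb beyond the end of Abca9, had 247, 181 and 200.3 in Input and 108, 111 and 83.8 in Positive, a log2 fold change of -1.05 ± 0.18 (SE, edgeR adjusted p = 0.000406). Abca8b fell as well, from 558, 622 and 538 to 405, 326 and 345, a change of -0.68 ± 0.12 on the log2 scale (SE, edgeR adjusted p = 0.000414). For Abca5, a lysosomal and endosomal protein, the values were 773, 773 and 736 in Input and 540.1, 528 and 498 in Positive, a change of -0.54 ± 0.09 (SE, edgeR adjusted p = 0.000278). In these 3 genes no Positive library reached the level of an Input library. Abca6, 8.6 kb before Abca9, was near the filter on low reads with 37.5, 23.2 and 28.8 in Input and 20.6, 29.4 and 33.3 in Positive, and no difference was detected (log2 fold change -0.09 ± 0.30, SE, edgeR adjusted p = 0.821). Reads of the run could be kept apart for most of its length: of all 42-base words of the Abca9 transcripts (the length of a trimmed read), 0.26% also occurred in Abca6, and of those of Abca8a, 2.02% also occurred in Abca8b.

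**Figure D3:**
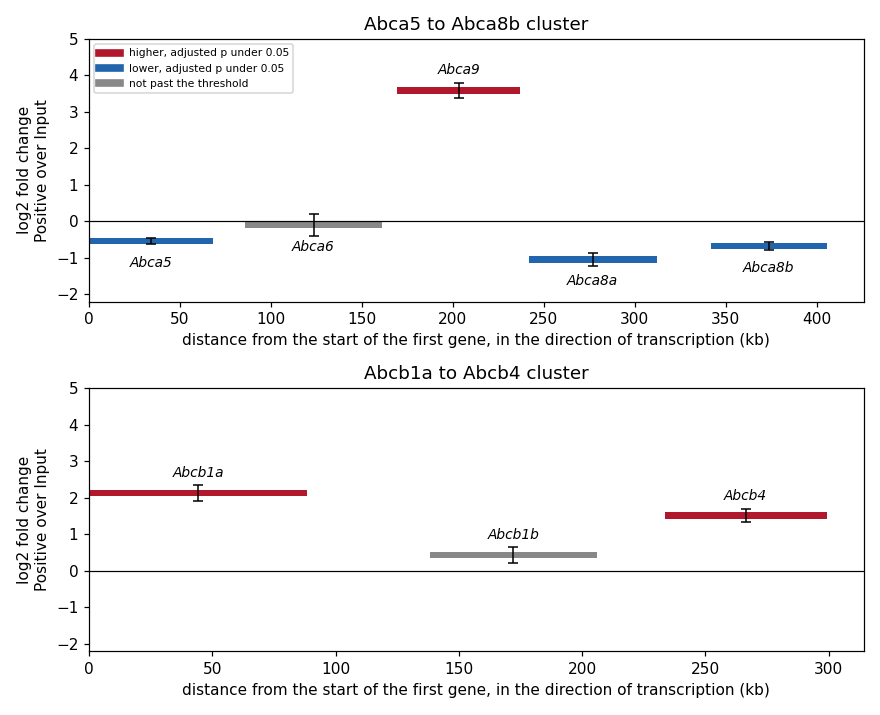
Log2 fold change (vertical axis, black bars: SE) of neighbouring members drawn along their gene bodies, as distance in kb from the start of the first gene in the direction of transcription, with colours for the call. In the upper panel Abca9 at 3.59 lies between Abca6 at -0.09 and Abca8a at -1.05, and in the lower panel Abcb1b at 0.43 lies between Abcb1a at 2.13 and Abcb4 at 1.51.

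The promoter windows of this run are shown because adjacent genes of one branch moved in opposite directions. They come from RefSeq (GRCm38.p6, which has the same chromosome sequences as mm10), run from 250 bases before to 50 bases after the annotated start, and are printed 5′ to 3′ on the strand of the gene with CG dinucleotides in capitals. Abca6 was not among the windows.
Abca5 (chr11:110337667-110337966, minus strand): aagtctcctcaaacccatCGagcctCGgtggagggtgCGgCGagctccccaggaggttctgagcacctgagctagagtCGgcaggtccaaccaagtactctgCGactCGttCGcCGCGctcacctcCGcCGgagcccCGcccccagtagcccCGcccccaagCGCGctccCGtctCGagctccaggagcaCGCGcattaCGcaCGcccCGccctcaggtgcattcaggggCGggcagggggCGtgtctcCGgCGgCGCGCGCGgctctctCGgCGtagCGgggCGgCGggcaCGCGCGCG
Abca9 (chr11:110168104-110168403, minus strand): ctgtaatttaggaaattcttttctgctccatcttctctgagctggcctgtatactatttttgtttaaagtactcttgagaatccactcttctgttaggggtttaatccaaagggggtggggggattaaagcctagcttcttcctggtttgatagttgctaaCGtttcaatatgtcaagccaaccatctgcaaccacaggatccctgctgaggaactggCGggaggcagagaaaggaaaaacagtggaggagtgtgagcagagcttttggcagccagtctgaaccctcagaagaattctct
Abca8a (chr11:110095888-110096187, minus strand): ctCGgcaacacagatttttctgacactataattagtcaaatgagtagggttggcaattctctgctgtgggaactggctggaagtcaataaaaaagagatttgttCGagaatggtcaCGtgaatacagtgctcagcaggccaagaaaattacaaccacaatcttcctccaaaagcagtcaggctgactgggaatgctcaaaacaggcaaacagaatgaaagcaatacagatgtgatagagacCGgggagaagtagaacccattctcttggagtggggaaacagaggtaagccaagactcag
Abca8b (chr11:109995796-109996095, minus strand): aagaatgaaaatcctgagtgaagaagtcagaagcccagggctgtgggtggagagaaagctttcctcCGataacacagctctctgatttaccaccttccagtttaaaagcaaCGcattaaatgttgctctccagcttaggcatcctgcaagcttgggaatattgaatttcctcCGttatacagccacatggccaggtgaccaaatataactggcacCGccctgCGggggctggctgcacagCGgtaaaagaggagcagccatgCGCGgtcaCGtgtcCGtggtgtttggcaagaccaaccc
Abca5 had 40 CG dinucleotides, Abca8b 10, Abca8a 4 and Abca9 2, against a median of 7 over 32851 windows of the same length. In all, 23.3% of those windows held 2 or fewer. Abca9 and Abca8a thus both had few CG dinucleotides and differed in direction. A link between the count and the fold change was not tested. Methylation was not measured in these samples.

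Windows were available for 25 of the 37 members. The sequence GAGGAAGT, a form of the site bound by PU.1, a factor that defines the macrophage lineage, was searched on both strands. It occurred in 3 of the 25 windows, those of Abcg3, Abcg2 and Abcc10, and in 3.2% of all windows. Their log2 fold changes were 4.08, 1.18 and -0.39, and that of Abcc10 did not pass the test. A match of these letters is a description and not evidence of binding. The window of Abcg3, the member with the highest fitted fold change, is printed with the match in capitals, which lies on the opposite strand and starts at base 259.
Abcg3 (chr5:104982668-104982967, minus strand): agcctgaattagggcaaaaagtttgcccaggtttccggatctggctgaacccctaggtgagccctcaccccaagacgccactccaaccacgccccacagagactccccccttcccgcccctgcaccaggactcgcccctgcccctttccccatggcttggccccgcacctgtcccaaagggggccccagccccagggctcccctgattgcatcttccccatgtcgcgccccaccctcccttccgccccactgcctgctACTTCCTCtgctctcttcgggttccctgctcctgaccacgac

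Among the sterol exporters, Abca1 and Abcg1 were higher and Abcg4 lower in Positive. Abca1 (chromosome 4, 53030787 to 53159895, minus strand) loads cholesterol and phospholipid onto apolipoproteins and is a target of the liver X receptors. It had 551, 514 and 613 scaled reads in Input and 1174, 1306 and 913 in Positive, with a log2 fold change of 1.02 ± 0.13 (SE, edgeR adjusted p = 2.71e-05). Abcg1 (chromosome 17, 31057698 to 31115777, plus strand), which passes cholesterol on to formed lipoprotein particles, had 810.0, 833 and 775 in Input and 1213, 1389 and 1329.9 in Positive, a log2 fold change of 0.70 ± 0.08 (SE, edgeR adjusted p = 2.11e-05). In both genes the groups did not overlap, while the microglial markers ranged from 4.16 to 4.82 on the log2 scale. Abcg4, a close relative of Abcg1 that is expressed mainly in the nervous system, had 905, 936 and 895 in Input and 727, 722 and 782 in Positive, or 81.4% of the Input level, with an edgeR adjusted p of 0.0108. All 3 kept their calls under every alternative run.

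The other Abca genes were lower or did not pass. Abca4 (chromosome 3, 122044443 to 122180123, plus strand), which clears retinoid lipids in photoreceptors, fell most of all members. It had 298, 237 and 289.7 scaled reads in Input and 151, 76.7 and 103 in Positive, with a log2 fold change of -1.32 ± 0.21 (SE, edgeR adjusted p = 0.000259). Beside it, the 6 markers of choroid plexus and ependyma had a median of -1.68 with 4 lower and none higher, and a summed level of 27999 to 37531 scaled reads in Input and 6923 to 8594 in Positive. Their part in the level of Abca4 was not tested. Abca2, a transporter of late endosomes and lysosomes that is abundant in oligodendrocytes, had 4329.5, 3569 and 3542 in Input and 3209, 2421 and 2339 in Positive. It fell to 69.6% of the Input level (log2 fold change -0.52 ± 0.12, SE, edgeR adjusted p = 0.00349). The 8 oligodendrocyte markers ranged from -3.10 to -1.74 on the same scale, with a summed level of 48226 to 53832 scaled reads in Input and 10503 to 13614 in Positive, and their part in the level of Abca2 was not tested. Abca7, a lipid transporter known for its part in phagocytosis and for Alzheimer's disease risk, showed no detectable difference, with 389, 356 and 329 in Input and 452, 333 and 281 in Positive (log2 fold change -0.01 ± 0.16, SE, edgeR adjusted p = 0.964). Abca3, which fills the lamellar bodies of the lung with surfactant lipid, was the member nearest to 0, at 0.01 ± 0.08 (SE) on the log2 scale (edgeR adjusted p = 0.965). Neither Abca7 nor Abca3 had a stable sign when libraries were left out.

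The drug efflux pumps of the blood-brain barrier, Abcb1a and Abcg2, rose. Abcb1a (chromosome 5, 8660077 to 8748575, plus strand) encodes P-glycoprotein, the main drug pump of brain endothelium in mice. It had 194, 187 and 203 scaled reads in Input and 1131, 915 and 509 in Positive, a log2 fold change of 2.13 ± 0.23 (SE, edgeR adjusted p = 7.02e-06). Input was tight, whereas the Positive library of animal 208 had less than the others. Abcg2 (chromosome 6, 58584523 to 58695676, plus strand), the breast cancer resistance protein, repeated that order with 214, 194 and 221 in Input and 581, 507 and 338 in Positive, and its log2 fold change was 1.18 ± 0.18 (SE, edgeR adjusted p = 0.00014). Abcc4, a pump for cyclic nucleotides and prostaglandins, had 164, 159.8 and 179.5 in Input and 327, 249 and 185 in Positive, with a log2 fold change of 0.60 ± 0.19 (SE, edgeR adjusted p = 0.0208). For Abcc6, which is needed to prevent calcification of soft tissue and is best known from liver, the values were 11.2, 17.2 and 19.6 in Input and 52.9, 37.8 and 20.8 in Positive, a log2 fold change of 1.21 ± 0.37 (SE, edgeR adjusted p = 0.0186). In animal 208 both of these genes lay close to their Input level. Like Abcg3, Abcc6 passed the filter on low reads only through Positive, so its direction was largely fixed by that filter.

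Among the 16 higher members, Abcc4 and Abcc6 were those whose call was lost under an alternative in which they were tested. Without the Positive library of animal 201 Abcc4 was at 0.37 on the log2 scale (edgeR adjusted p = 0.113) and Abcc6 at 0.88 (edgeR adjusted p = 0.0848). Each call was also lost without the Input library of animal 201 (edgeR adjusted p-values of 0.0622 and 0.0774) and without that of animal 207 (0.0714 and 0.051). With limma on the deposited log2 values Abcc4 had an adjusted p of 0.0652. Without the Positive library of animal 208 both passed, at 0.78 and 1.49.

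The 4 pumps were set beside endothelial markers animal by animal. Of the 12 endothelial markers, such as Flt1 and Cldn5, 11 were higher and none lower in Positive, with a median log2 fold change of 1.65, and their summed level was 3881 to 4269 scaled reads in Input and 7446 to 14550.3 in Positive. The log2 ratio of Positive to Input (1 read added to both) was 2.11, 1.73 and 0.87 for the median of these markers in animals 201, 207 and 208. The same ratios were 2.54, 2.28 and 1.32 for Abcb1a, 1.44, 1.38 and 0.61 for Abcg2, 0.99, 0.63 and 0.04 for Abcc4 and 2.14, 1.09 and 0.08 for Abcc6. Each was thus lowest in animal 208, as in 10 of the 16 higher members and 51.3% of all genes called higher. Mural markers gave 0.14, 0.29 and -0.83, also lowest in animal 208, with 1 of 8 higher (Myh11) and 1 lower (Cspg4). Their summed level was 3227 to 3371 in Input and 2112 to 4151 in Positive. A lowest ratio in animal 208 was not particular to vascular markers. The microglial markers gave 4.60, 4.95 and 4.38. Border macrophage, astrocyte, oligodendrocyte, fibroblast and choroid plexus medians were also lowest in animal 208. The neuron median was highest there at 0.29, and that of blood cells was lowest in animal 201. The part of vascular RNA in the result was not tested. Without both libraries of animal 208, an alternative chosen after the data had been seen, Abcb1a and Abcg2 were higher by 2.43 and 1.41 on the log2 scale.

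**Figure D4:**
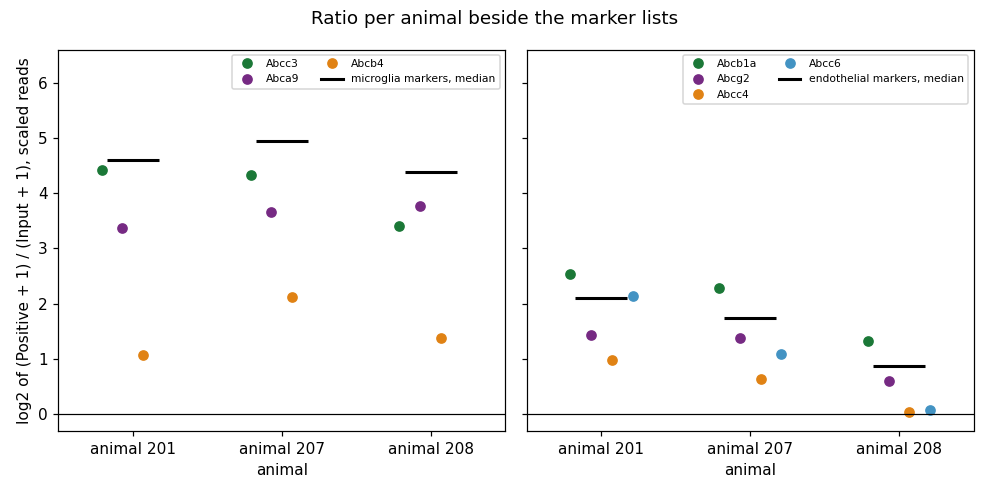
Log2 ratio of Positive to Input scaled reads (1 added to both) in each of the 3 animals, for Abcc3, Abca9 and Abcb4 beside the median of the microglial markers (left) and for 4 efflux pumps beside the median of the endothelial markers (right). Abcb1a, Abcg2, Abcc4 and Abcc6 are lowest in animal 208, as are the endothelial markers at 0.87 and the microglial markers at 4.38. In the left panel Abcc3 is also lowest in animal 208, at 3.40. Abca9 is highest in animal 208 at 3.76. The border macrophage markers, which are not drawn, had medians of 3.80, 4.47 and 3.79 in animals 201, 207 and 208. Which cells hold the RNA of Abcc3, Abca9 or Abcb4 was not tested.

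Abcb1a shares a locus on chromosome 5 with Abcb1b and Abcb4. Abcb4 (chromosome 5, 8893717 to 8959231, plus strand), which moves phosphatidylcholine into bile, was higher, with 192, 108 and 142 scaled reads in Input and 405, 475 and 372 in Positive (log2 fold change 1.51 ± 0.19, SE, edgeR adjusted p = 2.69e-05). Its order over animals was not that of Abcb1a, since the ratios were 1.08, 2.13 and 1.38 in animals 201, 207 and 208 and the lowest was in animal 201. Abcb1b, the second P-glycoprotein gene of mice, lies between them and did not pass, with 81.5, 57.5 and 88.3 in Input and 113, 101 and 89.9 in Positive (log2 fold change 0.43 ± 0.21, SE, edgeR adjusted p = 0.117). The Positive values were above the Input values, by little in animal 208. Of the 42-base words of Abcb1a transcripts 18.3% also occurred in Abcb1b, so a single read from those stretches would match both genes. The study sequenced reads in pairs, which the words leave out, so the share of pairs that cannot be assigned was not measured.

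The remaining Abcc genes were lower or did not pass. Abcc5, a pump for cyclic nucleotides and glutamate conjugates that is abundant in brain, had 2929, 2883 and 2877 scaled reads in Input and 2016, 1743 and 1455 in Positive. It fell to 60% of the Input level (log2 fold change -0.74 ± 0.10, SE, edgeR adjusted p = 8.06e-05) and was lower in each animal. Abcc8 encodes the sulfonylurea receptor, the regulatory part of ATP-sensitive potassium channels, and no pump. It had 599.7, 534 and 558 in Input and 499.9, 456 and 413 in Positive, with a log2 fold change of -0.31 ± 0.11 (SE, edgeR adjusted p = 0.0319). This call of Abcc8 was lost without the Input library of animal 201 (edgeR adjusted p = 0.103) or 208 (0.0779), without the Positive library of animal 207 (0.0717) or 208 (0.0785), and without both libraries of animal 208 (0.144). Abcc10, a drug pump, had 232, 171 and 187 in Input and 169, 160.0 and 123 in Positive and did not pass (log2 fold change -0.39 ± 0.17, SE, edgeR adjusted p = 0.0884), although the groups did not overlap. Under total count scaling it passed with an edgeR adjusted p of 0.0456. Abcc1, which exports glutathione conjugates and leukotriene C4, had a log2 fold change of -0.21 ± 0.13 (SE, edgeR adjusted p = 0.208).

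Of the Abcd genes, Abcd2, a carrier of very long chain fatty acids into peroxisomes, rose. It had 389, 408 and 426 scaled reads in Input and 709.8, 823 and 609 in Positive, with 0.81 ± 0.12 (SE) on the log2 scale and an edgeR adjusted p of 0.00011. Every Positive library was above every Input library. Abcd3, the most abundant peroxisomal transporter, had 1003, 1084 and 1177 in Input and 993, 1021 and 928 in Positive, and no difference was detected (log2 fold change -0.15 ± 0.09, SE, edgeR adjusted p = 0.177). Under total count scaling it was lower with an edgeR adjusted p of 0.0468. Abcd4, which takes part in the release of cobalamin from lysosomes, had a log2 fold change of -0.19 ± 0.14 (SE, edgeR adjusted p = 0.284).

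Half-transporters of mitochondria and lysosomes showed small differences. Abcb10, which supports haem synthesis, and Abcb8, also of the mitochondrial inner membrane, had log2 fold changes of -0.04 ± 0.12 (SE, edgeR adjusted p = 0.821) and -0.12 ± 0.09 (SE, edgeR adjusted p = 0.314). Abcb9, a peptide carrier of lysosomes, was at -0.11 ± 0.11 (SE, edgeR adjusted p = 0.432) and Abcb6, a porphyrin transporter, at 0.27 ± 0.16 (SE, edgeR adjusted p = 0.181). Of the exon bases annotated to Abcb6 55.2% are shared with a transcript named Gm29253 on the same strand, so its reads are uncertain.

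The members without membrane domains all rose by small amounts with little spread. Abce1 splits ribosomes into subunits after termination, and had 1183, 1221 and 1232 scaled reads in Input and 1419, 1462 and 1641 in Positive, a log2 fold change of 0.31 ± 0.08 (SE, edgeR adjusted p = 0.00701). Abcf1, which binds initiation factor eIF2, had 1669, 1845 and 1598 in Input and 2603, 2417 and 2339.5 in Positive, with 0.52 ± 0.08 (SE, edgeR adjusted p = 0.000201). Abcf3 and Abcf2 are relatives of Abcf1 whose roles are less well known. For Abcf3 the values were 1286, 1359 and 1263 in Input and 1873, 1751 and 1603 in Positive, a change of 0.42 ± 0.08 (SE, edgeR adjusted p = 0.00114). Abcf2 had 1408, 1381 and 1389.8 in Input and 1783, 1827 and 1725 in Positive, with 0.35 ± 0.07 (SE, edgeR adjusted p = 0.00161). In each of the 4 genes every Positive library was above every Input library, and the calls held under every alternative run.

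Levels were compared between members per kb of exon, since longer transcripts give more reads. In Input the order began with Abcf2 at 542 ± 5.51 scaled reads per kb (SD, n = 3), Abca2 at 457 ± 53.6, Abcf1 at 386 ± 28.8 and Abcf3 at 366 ± 14. The ranges of Abcf1 and Abcf3 over libraries overlapped, and the others did not. In Positive, Abcf2 was at 692 ± 19.9 scaled reads per kb, Abcf1 at 556 ± 30.7, Abcf3 at 489.7 ± 38, Abca2 at 318 ± 57.6 and Abce1 at 251 ± 19.6, each apart from the next one named. Abca2 thus remained the most abundant member with membrane domains in both fractions. Abca9 moved from rank 32 of the 37 members in Input, at 15.5 ± 4.43, to rank 6 in Positive, at 188 ± 50.3 scaled reads per kb, where its range overlapped those of Abce1 and Abcg1. Abcc3 moved from rank 34 to rank 17, with 7.18 ± 1.93 in Input and 119.9 ± 21.9 in Positive. Abcb1a moved from rank 22 to rank 10, with 35.5 ± 1.47 and 155 ± 57.6. The ranges over Positive libraries were wide, and that of Abcb1a overlapped the ranges of the members ranked 6 to 20 and that of Abcc3 those ranked 9 to 20. Abcg3 stayed low in Positive, at rank 32 with 16.5 ± 2.65, despite its large fold change. Abca6 and Abcc6 were lowest there at 5.15 ± 1.21 and 6.49 ± 2.81, and their ranges overlapped.

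**Figure D5:**
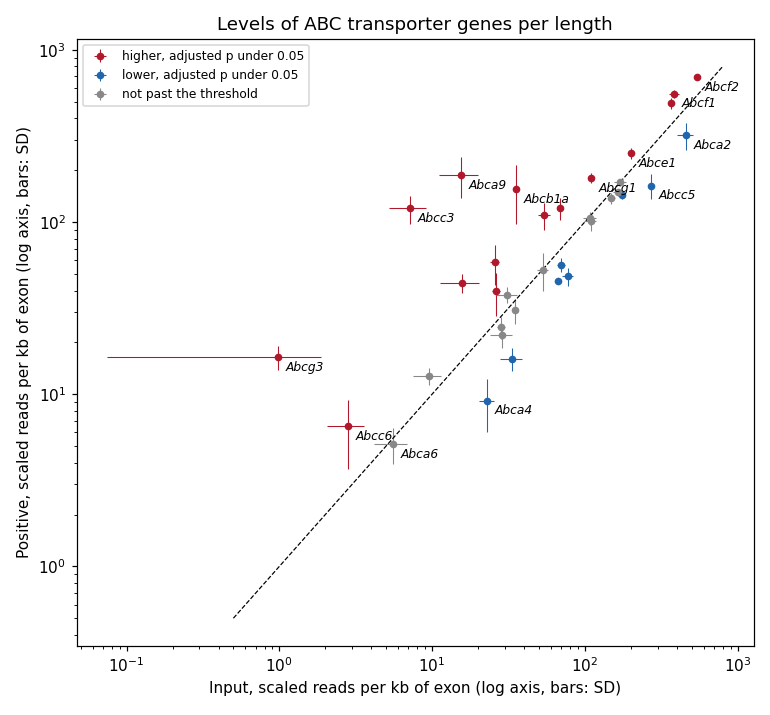
Mean scaled reads per kb of exon of 35 ABC transporter genes in Input (horizontal) and Positive (vertical), both on log axes, with bars for the SD over 3 libraries, colours for the call and a dashed line of equal level. Abcf2 is highest on both axes, Abca9 and Abcc3 lie far above the line at 188 and 120 in Positive, and Abca2 and Abcc5 lie below it.

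Genes that work with these transporters were counted in 7 lists, in which 42 of 84 genes tested differed, 31 higher and 11 lower. That is 50.0% of the list genes against 46.0% of all genes, with 36.9% against 23.9% higher and 13.1% against 22.0% lower, so the total share lay near that of all genes. The same shares apply beside each list that follows. The peptide loading list of MHC class I had all 9 genes tested higher, with a median log2 fold change of 1.10 against -0.01 over all genes. It includes Tap1 and Tap2, which are ABC transporters of the Abcb subfamily by structure but not by symbol. Tap1 had 66.3, 85.5 and 83.2 scaled reads in Input and 221, 213 and 172 in Positive, a log2 fold change of 1.37 ± 0.18 (SE, edgeR adjusted p = 4.39e-05), and Tap2 rose by 0.96 ± 0.16 (SE, edgeR adjusted p = 0.000383). B2m, the light chain of class I molecules, was higher by 3.09.

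In the list of cholesterol efflux and the liver X receptor pathway, 9 of 17 genes were higher and 1 lower, with a median of 0.37. Npc2, which hands cholesterol out of lysosomes, was higher by 1.69 ± 0.12 (SE, edgeR adjusted p = 1.76e-07), and Mylip, a target of the liver X receptors that degrades lipoprotein receptors, by 2.08 ± 0.12 (SE, edgeR adjusted p = 1.47e-08). Apoe, which accepts the cholesterol exported by Abca1, had 33532, 35458 and 35492 scaled reads in Input and 42761, 48340.0 and 32519 in Positive and did not pass (log2 fold change 0.24 ± 0.13, SE, edgeR adjusted p = 0.143). Without the Positive library of animal 208 it passed at 0.39 with an edgeR adjusted p of 0.000558. Nr1h3, the liver X receptor alpha, had 45.3, 46.5 and 47.6 in Input and 45.3, 44.3 and 28 in Positive, with a log2 fold change of -0.22 ± 0.26 (SE, edgeR adjusted p = 0.504).

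The peroxisomal list had 3 of 14 genes higher and none lower, with a median of 0.17, a share called below that of all genes. Acox3 and Hsd17b4, both enzymes of fatty acid oxidation, rose by 1.00 ± 0.10 (SE, edgeR adjusted p = 2.58e-06) and 1.00 ± 0.11 (SE, edgeR adjusted p = 6.88e-06), while Slc27a4, a fatty acid carrier with many reads, had -0.08 and did not pass. The list of ribosome recycling, termination and Gcn2 had 3 of 8 genes higher and none lower, with a median of 0.16. Its release factor gene Gspt1 was higher by 0.98 ± 0.08 (SE, edgeR adjusted p = 3.57e-07), whereas Etf1 and Gcn1l1 had 0.17 and 0.14 and did not pass. In the list of mitochondrial iron-sulfur clusters and haem, 3 of 14 were higher and 4 lower, with a median of -0.11. Iscu, the scaffold of cluster assembly, was higher by 0.33 and Isca1, a later assembly factor, changed by -0.40. The glutathione and conjugation list had 2 of 12 higher and 5 lower with a median of -0.27, and Gstm1 and Gstp1, both glutathione transferases, had -0.45 and -0.24. The call of Gstm1 was lost under 3 and that of Gstp1 under 7 of the 16 alternatives. Of the cobalamin list, 2 of 10 genes were higher and 1 lower with a median of 0.05, also a lower share than over all genes. Tcn2, the carrier of cobalamin in blood, was higher by 2.10 ± 0.15 (SE, edgeR adjusted p = 1.51e-07), and Lmbrd1, the lysosomal partner of Abcd4, had -0.15 and did not pass.

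Markers of further cell types moved with the fractions. Fibroblast markers had 6 of 7 lower and none higher with a median of -0.74. They ranged from -1.67 for Pdgfra to -0.59 for Lum. Their summed level was 4019 to 4334 scaled reads in Input and 1620.4 to 2407 in Positive. A marker listed for a cell type need not be expressed by that type alone. Blood cell markers had 1 of 5 higher and 4 lower. The 4 lower ones were the red cell genes Hbb-bs, Hba-a1, Hba-a2 and Alas2. The higher one was the monocyte gene Ly6c2, at 1.61 on the log2 scale. It had 12.2, 7.52 and 2.10 scaled reads in Input and 24.7, 22.3 and 20.8 in Positive. Ly6c2 passed the filter on low reads only through Positive, so its direction was largely fixed by that filter. None of the markers tested was at 0 in any library. The part of these cells in the levels of single ABC transporter genes was not tested.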

How the data were processed

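Hippocampal RNA of 3 mice was sequenced as 3 Input and 3 Positive libraries, grouped by the fraction label. The authors trimmed reads, aligned them to mm10 in Strand NGS with strand, and deposited expected counts per Ensembl gene, which need not be whole (17.3% to 23.1% were), for genes with at least 20 reads in all libraries of Input or of Positive. The deposited log2 values are DESeq-scaled and centred on Input, and entered 1 alternative. Reads carry no molecular identifiers, so their number bounds counting error only. Some genes, 3 of the family among them, are not reported here, though counts include those tested.

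Counts were rounded and tested over all genes with edgeR 4.0.16 (R 4.3.3, glmQLFit, median-of-ratios scaling, genes kept with over 20 scaled reads in all libraries of Input or of Positive, which dropped 45 genes and no member), unpaired as in the study. DESeq2 1.42.0 and limma 3.58.1 served as alternatives. Full values were given for called members with a log2 fold change of at least 1 in size and members whose call moved, and other genes were named from lists by mean reads or, for Mylip, Acox3, Hsd17b4, Gspt1 and B2m, after their values were seen. Members and lists were chosen with earlier results of these data known. Both libraries of a number come from the same animal, and their deviations from the group means correlated by 0.194, 0.0584 and 0.12 in animals 201, 207 and 208. Exon lengths and transcript words came from GENCODE M21 (GRCm38), whose coordinates equalled the deposited ones for 35 of 37 members. The method was tested on simulated data.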

Additional observations from a re-analysis of the deposited data

How the results depend on the processing

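Every count of members stayed within 1.5 times of its main value under the 14 planned and 2 added alternatives. When single libraries were left out in turn, 21 to 24 members differed, 14 to 17 higher and 7 to 8 lower, 19 to 23 were past a ratio of 5 to 4, 3 to 4 were over 5-fold, and 39 to 43 pathway genes differed. With the animal as a replicate block 25 members differed, and this changed no call among the members described above. Total count scaling gave 26 and moved the median of all genes to -0.09. Above 100 scaled reads 22 of 33 members differed, with 12156 genes tested, and the median over members was -0.0218. Among the pathway genes named, Gcn1l1 passed the test under 1 alternative and Apoe and Lmbrd1 under 2. Sign changes were confined to Abca3, Abca6, Abca7 and Abcb10, which passed the test under no setting run, and the cause was not tested. Abca3 was at -0.0716 under total count scaling, -0.0218 above 100 scaled reads, -0.00821 with limma on the deposited values, -0.0115 with the size factors of the authors and -0.056 without both libraries of animal 208, the last 2 chosen after seeing the data. Abca7 was at 0.0782 without both libraries of animal 208. Across the fits without one library the log2 fold change was -0.0622 to 0.0593 for Abca3, -0.245 to 0.110 for Abca6, -0.221 to 0.134 for Abca7 and -0.107 to 0.0424 for Abcb10.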
